A study of Mus musculus with 24 samples.

Results

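The 8 genes described here are Hmox1, Sqstm1, Txnrd1, Gsr, Gstm1, Nqo1, Gclm and Gclc, genes of the antioxidant response that is known to be driven by the transcription factor NRF2. They were chosen by name, with earlier results of these data known. Their counts beside shares of all genes are therefore a description and not a test. All of their probe sets in the array's probe-to-gene table were taken. That gave 10 of the 12488 probe sets and 8 of the 8251 genes on the array. Gstm1 and Nqo1 had 2 probe sets each and the other genes 1 each. All 8 genes passed the filter on low signal that left 5692 genes for testing. That filter used the mean over all 24 arrays and not the level in any 1 group.

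The cells were primary mouse embryonic fibroblasts, either CHOP-/- or wild type. CHOP is a transcription factor encoded by Ddit3 and made under endoplasmic reticulum (ER) stress. Both genotypes were sampled untreated and after 4 h and 8 h of tunicamycin at 2 µg/ml, an inhibitor of N-linked glycosylation that leaves unfolded proteins in the ER. Each of the 6 groups held 4 arrays, lettered A to D: CHOP-/- untreated, 4 h and 8 h, and wild type untreated, 4 h and 8 h. The labels give neither the strain nor the age of the embryos, name no group with solvent alone and give no time for the untreated cells. Effects of tunicamycin and of time or handling cannot be told apart here. The labels do not say whether arrays A to D of a group are separate cultures, and p-values measure the spread between these arrays, which may be technical. The label "pass 3" is given for untreated wild type arrays A, B and C alone.

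NRF2, encoded by Nfe2l2, is held in the cytosol by KEAP1, which hands it to the proteasome. Oxidants and electrophiles modify KEAP1, and NRF2 then gathers in the nucleus, pairs with small MAF proteins and binds antioxidant response elements, where the repressor BACH1 can take its place. Its targets make and recycle glutathione, reduce thioredoxin, break down heme and detoxify quinones. NRF2 is also known as a substrate of PERK, the ER stress kinase upstream of ATF4 and CHOP.

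Promoter sequences are shown because the regulators named above are known to act through short DNA elements near gene starts. The RefSeq table of promoters (GRCm38.p6) held 8 windows for 5 of the genes, each of 300 bases with 250 before and 50 after a transcript start. They belonged to Gstm1, Gclm, Nqo1, Txnrd1 and Sqstm1. Bases before the start are printed 5′ to 3′ on the gene's strand for Sqstm1 and Txnrd1, which were called higher after 8 h in wild type cells alone, for Gstm1, which was called lower in both genotypes, and for Gclm, which was called in neither. Capitals mark a match to the core of the antioxidant response element, searched as TGACNNNGC on both strands. The Sqstm1 stretch is chr11:50210821-50211070 (minus strand) and the Gstm1 stretch chr3:108017974-108018223 (minus strand), each ending just before the annotated gene. The Txnrd1 stretch is chr10:82858956-82859205 (plus strand), inside the annotated span of the gene and before the start of a shorter transcript. It is from the Txnrd1 window that held a match. The other Txnrd1 windows held none, with bases before the start at chr10:82833701-82833950, just before the annotated gene, and at chr10:82860091-82860340. The Gclm stretch is chr3:122245307-122245486 (plus strand) and ends just before the annotated gene.
Sqstm1: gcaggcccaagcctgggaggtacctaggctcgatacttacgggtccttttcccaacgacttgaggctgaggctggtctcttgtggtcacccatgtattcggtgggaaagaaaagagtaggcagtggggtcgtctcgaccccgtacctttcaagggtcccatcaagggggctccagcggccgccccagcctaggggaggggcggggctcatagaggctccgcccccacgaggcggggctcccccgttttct
Txnrd1: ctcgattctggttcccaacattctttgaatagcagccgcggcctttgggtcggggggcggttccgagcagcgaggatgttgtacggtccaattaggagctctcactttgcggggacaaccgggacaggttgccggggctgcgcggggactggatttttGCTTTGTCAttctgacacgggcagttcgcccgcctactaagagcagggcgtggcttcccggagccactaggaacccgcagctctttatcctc
Gclm: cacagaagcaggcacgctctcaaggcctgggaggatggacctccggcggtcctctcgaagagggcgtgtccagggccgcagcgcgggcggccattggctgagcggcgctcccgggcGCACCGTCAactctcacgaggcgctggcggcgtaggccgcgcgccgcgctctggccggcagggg
Gstm1: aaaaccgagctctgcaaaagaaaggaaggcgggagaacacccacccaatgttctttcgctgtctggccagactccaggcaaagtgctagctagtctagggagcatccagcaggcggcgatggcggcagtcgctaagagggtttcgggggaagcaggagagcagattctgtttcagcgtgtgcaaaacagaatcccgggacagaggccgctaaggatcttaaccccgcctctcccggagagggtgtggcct

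The core matched 2 of the 8 windows. In Txnrd1 the 9 matching bases, at chr10:82859114-82859122, began 92 bases before the transcript start. In Gclm they lay at chr3:122245423-122245431 and began 134 bases before the start of the window's transcript. Of all 32851 promoter windows of the same length, 12.39% held the core. A composite C/EBP-ATF motif, to which CHOP and ATF4 are known to bind, was searched as TGATGNAA and an AP-1 motif as TGANTCA, again on both strands. Neither was in any of the 8 windows, against 3.97% and 7.81% of all windows. The AP-1 motif shares its first letters with the antioxidant core. These matches describe letters only.

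The genotype labels were checked on Ddit3. In CHOP-/- cells its signal averaged 14.7 ± 12 untreated, 31.6 ± 11 at 4 h and 20.5 ± 14.4 at 8 h, against 299.6 ± 97.4, 3652 ± 722 and 4383 ± 524 in wild type cells (SD, n = 4). The arrays of the genotypes did not overlap at any time, with an exact two-sided permutation p of 0.0286, the smallest that 4 against 4 can give. Fibroblast markers were strong on all arrays, with a summed signal over 9 genes of 18604 to 30852, although the Vim probe set was weak throughout. Of the 8 fibroblast markers tested, 2 were called lower at 8 h in CHOP-/- cells and 3 in wild type cells. The shares of all genes called lower were 6.64% in CHOP-/- and 6.94% in wild type cells. Between the genotypes at 8 h Pdgfrb was called higher (0.75) and S100a4 lower (-0.77) in CHOP-/- cells. Epithelial, endothelial and erythroid markers summed to at most 366.5. The 1 endothelial marker tested, Flt1, was called lower at 8 h in wild type cells (-0.71) and higher in CHOP-/- than in wild type cells at 8 h (1.16). The part of these marker differences in the results was not tested.

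Leukocyte markers set wild type arrays A and B apart from the rest. The 11 markers summed to between 2473.1 and 4802.7 on wild type arrays A and B over the 3 times, and to between 543.9 and 995.3 on wild type arrays C and D. On CHOP-/- arrays the sum ran from 700.6 to 1741.4 on A and B and from 475.9 to 1433.6 on C and D. At 8 h the CHOP-/- sums were 993.1 and 1331.6 on A and B, above 475.9 and 549.5 on C and D. Untreated and at 4 h CHOP-/- array C lay above CHOP-/- array B. Lyz2, the lysozyme of macrophages, ran from 633.5 to 1563.4 on wild type A and B and from 76.7 to 167.7 on wild type C and D. Ptprc, the pan-leukocyte marker CD45, was weak throughout but split the same way, from 12 to 32.9 on wild type A and B and from 1.2 to 7 on wild type C and D. On CHOP-/- arrays it ran from 0.7 to 16.4. None of the 7 markers tested was called in any of the 11 contrasts, though their median log2 difference between CHOP-/- and wild type cells at 8 h was -1.07. Calls among the antioxidant genes that rest on wild type arrays are therefore also given without wild type arrays A and B. The part of these cells in the results was not tested beyond that, and more cells of a type cannot be told apart from more RNA per cell.

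**Figure D1:**
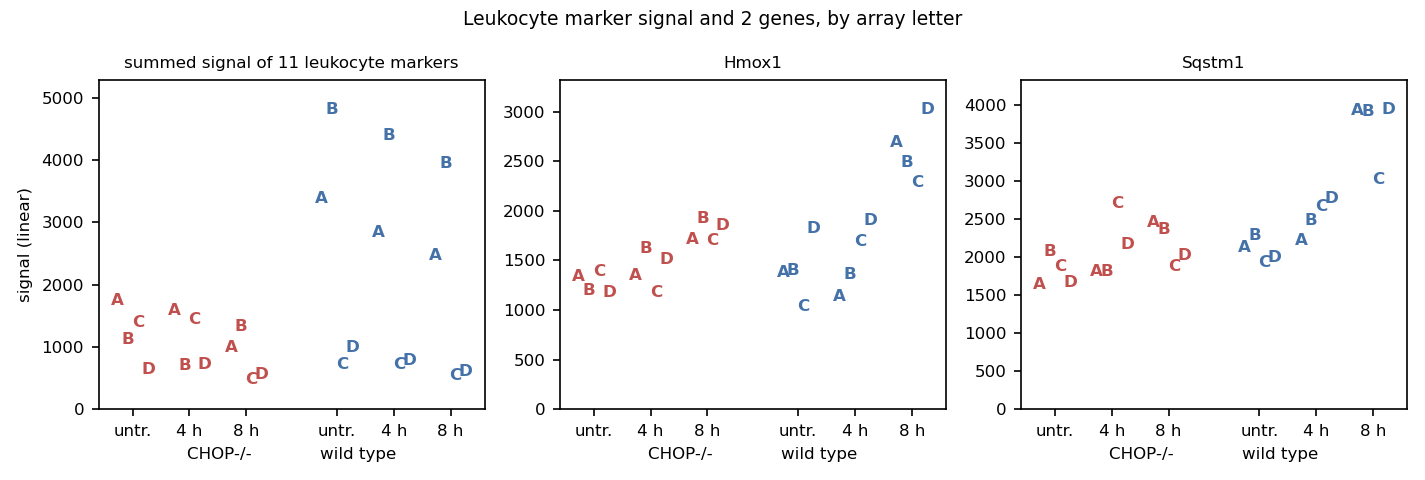
Signal on a linear scale, by array letter, for the sum of 11 leukocyte markers (left), Hmox1 (middle) and Sqstm1 (right), with CHOP-/- groups left of wild type groups and untreated, 4 h and 8 h in order. Wild type arrays A and B, between 2473.1 and 4802.7, stand above all other arrays for the markers, whereas at 8 h the wild type arrays C and D also lie above every CHOP-/- array for both genes.

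Signals are linear intensities as deposited. Fitted differences are in log2 after quantile normalization, with a pseudocount of 5.7 added, which understates the change of genes with low signal. A gene was called when its p from limma, adjusted over all 5692 genes by the Benjamini-Hochberg method, was under 0.05. Signals of different probe sets were not set against each other. After normalization the arrays at 8 h did not overlap the untreated ones in 18.5% of all genes in CHOP-/- and 20.6% in wild type cells. For 4 h against untreated these shares were 5.92% and 6.92%.

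After 8 h of tunicamycin the antioxidant genes did not move as 1 group. In CHOP-/- cells 3 of the 8 were called: Hmox1 was higher, and Gsr and Gstm1 were lower. In wild type cells 5 of the 8 were called: Hmox1, Sqstm1 and Txnrd1 were higher, and Gsr and Gstm1 were lower. Nqo1, Gclm and Gclc were not called in either genotype. Among all genes tested, 13.9% were called at 8 h in CHOP-/- cells, 7.27% higher and 6.64% lower. In wild type cells 16.6% were called, 9.65% higher and 6.94% lower. The median log2 change of the 8 genes was -0.04 in CHOP-/- cells and 0.22 in wild type cells, beside -0.01 and -0.02 for all genes.

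**Figure D2:**
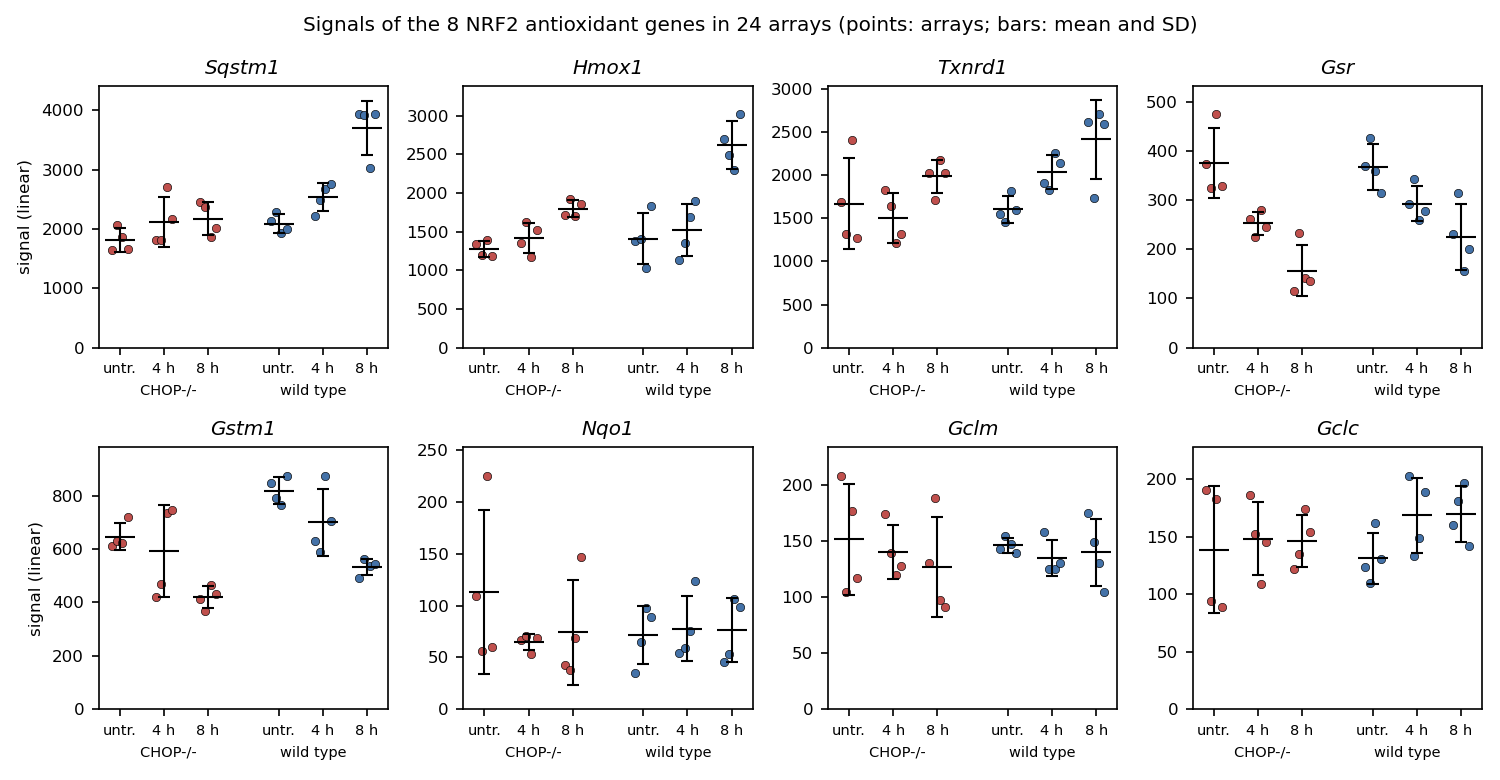
Linear signal of the probe set that stands for each of the 8 genes, in 24 arrays, with CHOP-/- groups (red) left of wild type groups (blue) and time from left to right. Points are arrays and bars the mean and SD of 4 arrays. Sqstm1 and Hmox1 are highest in wild type cells at 8 h, with means of 3702 and 2624, while Gsr and Gstm1 are low at 8 h in both genotypes.

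Sqstm1 encodes p62, a receptor that carries ubiquitinated cargo to autophagy, binds KEAP1 and so frees NRF2, and is itself an NRF2 target. Its probe set 101995_at stands for a gene on chromosome 11 (50200152 to 50210820). CHOP-/- signals on arrays A to D were 1638.0, 2070.3, 1870.6 and 1660.1 untreated, 1805.6, 1813.4, 2704.1 and 2169.4 at 4 h, and 2449.5, 2363.3, 1871.6 and 2018.0 at 8 h. Wild type signals were 2132.1, 2286.6, 1929.2 and 1993.0 untreated, 2220.3, 2483.5, 2667.3 and 2765.4 at 4 h, and 3929.8, 3921.3, 3020.9 and 3937.4 at 8 h. All 4 wild type arrays at 8 h lay above every other array of the series, whereas the CHOP-/- arrays at 8 h overlapped the untreated ones. The log2 change at 8 h was 0.25 (SE 0.108, adjusted p = 0.138) in CHOP-/- cells and 0.86 (SE 0.108, adjusted p = 5.14e-06) in wild type cells. The wild type call held in all 22 alternative fits of that contrast, with changes between 0.82 and 0.94. Without wild type arrays A and B the wild type change was 0.82 (adjusted p = 0.00708).

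Sqstm1 was also the 1 gene of the 8 called between the genotypes. At 8 h it was lower in CHOP-/- than in wild type cells by a log2 difference of -0.77 (SE 0.108, 95% interval -0.99 to -0.55, adjusted p = 0.000111), and all CHOP-/- arrays lay below all wild type arrays. The difference was -0.30 (adjusted p = 0.156) at 4 h and -0.16 (adjusted p = 0.719) untreated. Without wild type arrays A and B the 8 h difference was -0.66 and still called, with an adjusted p of 0.0243. Without arrays A and B of both genotypes it was -0.79 and not called (adjusted p = 0.0563). Of all genes, 4.16% were called between the genotypes at 8 h, and 11.5% had arrays that did not overlap.

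Whether the response itself differed was tested by subtracting the wild type change from the CHOP-/- change. For Sqstm1 this was -0.61 at 8 h (SE 0.153, 95% interval -0.93 to -0.29), with a p of 0.000571 that gave an adjusted p of 0.406 over all genes. A difference in the Sqstm1 response was thus not called. It was -0.58 (adjusted p = 0.999) without wild type arrays A and B. None of the 8 genes was called for a response difference at 8 h or at 4 h by limma. At an unadjusted p under 0.05 there was 1 gene at 8 h, Sqstm1, and 1 at 4 h, Txnrd1, beside 4.6% and 4.04% of all genes at the same threshold. Of all genes tested, 0.0351% were called for a response difference at 8 h and 0% at 4 h after adjustment.

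Hmox1 encodes heme oxygenase-1, which breaks heme down to biliverdin, iron and carbon monoxide. Its probe set 160101_at belongs to a gene on chromosome 8 (75093618 to 75100593). The CHOP-/- signals on arrays A to D were 1340.7, 1198.5, 1384.8 and 1177.8 untreated, 1348.9, 1617.9, 1177.0 and 1514.8 at 4 h, and 1708.3, 1923.1, 1699.6 and 1858.1 at 8 h. Those of wild type arrays were 1378.7, 1402.8, 1032.0 and 1825.3 untreated, 1134.8, 1356.7, 1691.6 and 1899.2 at 4 h, and 2691.7, 2493.0, 2291.6 and 3020.0 at 8 h. In both genotypes every array at 8 h lay above every untreated array, and neither genotype separated from untreated at 4 h. The log2 change at 8 h was 0.49 (SE 0.151, adjusted p = 0.0306) in CHOP-/- cells and 0.91 (SE 0.151, adjusted p = 0.000152) in wild type cells. At 4 h it was 0.14 in each genotype, with adjusted p-values of 0.808 in CHOP-/- and 0.871 in wild type cells.

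The CHOP-/- call for Hmox1 was marginal. Leaving out any 1 of CHOP-/- untreated arrays B and D or CHOP-/- 8 h arrays B, C and D ended it, with adjusted p-values between 0.0535 and 0.0826. The wild type change was 0.93 without wild type arrays A and B (adjusted p = 0.019). It was 0.50 (adjusted p = 0.209) with array D as the only untreated wild type array, the one with the highest untreated signal. The genotypes did not overlap at 8 h, as in 11.5% of all genes. CHOP-/- was lower by a log2 difference of -0.51 (SE 0.151, 95% interval -0.82 to -0.20) that was not called (adjusted p = 0.055). With the array letter as a replicate block, which pairs the arrays of this contrast, the adjusted p was 0.0331, and 2 of the 8 genes were called in place of 1. The genotype difference was -0.52 (adjusted p = 0.185) without wild type arrays A and B. The response difference at 8 h was -0.42 (SE 0.213, adjusted p = 1).

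Txnrd1 encodes the cytosolic thioredoxin reductase, a selenoprotein that uses NADPH to reduce thioredoxin. Its probe set 99985_at belongs to a gene on chromosome 10 (82833951 to 82897724). Arrays A to D of CHOP-/- cells gave 1693.6, 1316.6, 2410.6 and 1266.6 untreated, 1832.2, 1646.8, 1214.4 and 1323.9 at 4 h, and 2030.9, 1717.2, 2178.5 and 2028.0 at 8 h. Those of wild type cells gave 1553.4, 1452.6, 1819.5 and 1599.0 untreated, 1913.8, 1835.2, 2258.7 and 2146.2 at 4 h, and 2621.1, 1736.8, 2711.4 and 2594.3 at 8 h. Wild type array B at 8 h lay within the untreated range, and the other 3 lay above it. The log2 change at 8 h was 0.28 (SE 0.172, adjusted p = 0.319) in CHOP-/- cells and 0.59 (SE 0.172, adjusted p = 0.0197) in wild type cells. At 4 h it was -0.13 (adjusted p = 0.863) in CHOP-/- and 0.39 (adjusted p = 0.392) in wild type cells. The wild type call at 8 h ended in 8 of 22 alternative fits. They included leaving out wild type untreated array B or wild type 8 h array A, C or D, with adjusted p-values between 0.0562 and 0.0684. Without wild type arrays A and B the change was 0.65 (adjusted p = 0.15). Between the genotypes at 8 h Txnrd1 was at -0.25 in CHOP-/- against wild type cells (adjusted p = 0.532). Its response difference at 8 h was -0.31 (95% interval -0.81 to 0.19), and neither difference was called.

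The 2 genes called lower at 8 h serve glutathione in different ways. Gsr encodes glutathione reductase, which returns oxidised glutathione to its reduced form with NADPH. Its probe set 160646_at belongs to a gene on chromosome 8 (33653238 to 33698162). Signals on CHOP-/- arrays A to D were 374.0, 324.0, 474.7 and 327.7 untreated, 260.9, 224.7, 280.6 and 244.4 at 4 h, and 115.6, 232.7, 141.8 and 134.9 at 8 h. Signals on wild type arrays were 369.9, 426.3, 359.2 and 313.4 untreated, 291.4, 343.4, 259.8 and 276.7 at 4 h, and 230.5, 314.1, 156.0 and 199.7 at 8 h. All 4 h and 8 h arrays of CHOP-/- cells lay below their untreated arrays, and the 8 h arrays of wild type cells did so after normalization. As deposited, wild type 8 h array B (314.1) lay just above untreated array D (313.4). Gsr had the largest log2 change of the 8 genes at 8 h in CHOP-/- cells, -1.24 (SE 0.196, adjusted p = 0.000122), against -0.75 (SE 0.196, adjusted p = 0.0101) in wild type cells. At 4 h the change was -0.52 (adjusted p = 0.255) in CHOP-/- and -0.35 (adjusted p = 0.567) in wild type cells.

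Gsr was the 1 gene of the 8 called between 8 h and 4 h in CHOP-/- cells, where it was lower at 8 h with a log2 difference of -0.73 (SE 0.196, adjusted p = 0.0303). That comparison called 5.53% of all genes. The call ended when any 1 of CHOP-/- 4 h arrays A, C and D or CHOP-/- 8 h arrays A, C and D was left out, with adjusted p-values between 0.051 and 0.12. Between the genotypes at 8 h the log2 difference was -0.52 (95% interval -0.92 to -0.11, adjusted p = 0.156), and -0.24 (adjusted p = 0.719) without wild type arrays A and B. CHOP-/- 8 h array B is the high one of its group, and without it that difference was -0.72 and called (adjusted p = 0.0338). The wild type change at 8 h was -0.91 without wild type arrays A and B, with an adjusted p of 0.0551.

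Gstm1 encodes a mu-class glutathione S-transferase, which joins glutathione to electrophiles. It lies on chromosome 3 (108012250 to 108017973). Probe set 93543_f_at stood for it, and its suffix marks probes shared within a gene family, so that other mu-class transferases may add to its signal. From A to D, CHOP-/- arrays gave 611.2, 630.9, 622.5 and 721.3 untreated, 419.5, 470.2, 734.3 and 747.5 at 4 h, and 411.3, 369.7, 466.4 and 430.7 at 8 h. In the same order, wild type arrays gave 848.7, 789.9, 764.6 and 872.4 untreated, 629.4, 590.0, 876.0 and 707.1 at 4 h, and 490.7, 562.1, 537.9 and 543.9 at 8 h. At 8 h all arrays lay below all untreated arrays of their genotype. The log2 change was -0.61 (SE 0.159, adjusted p = 0.0118) in CHOP-/- cells and -0.62 (SE 0.159, adjusted p = 0.00876) in wild type cells. The response difference was 0.01 (95% interval -0.45 to 0.48). Without wild type arrays A and B the wild type change was -0.60 (adjusted p = 0.181).

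CHOP-/- arrays of 93543_f_at lay below wild type arrays both untreated and at 8 h. Of all genes, 5.27% did not overlap between the genotypes untreated and 11.5% at 8 h. The log2 difference between the genotypes was -0.36 untreated (adjusted p = 0.483), -0.26 at 4 h (adjusted p = 0.467) and -0.35 at 8 h (adjusted p = 0.255), and none was called. The other probe set of the gene, 161633_r_at, whose suffix marks relaxed rules of probe choice, was weaker, with signals of 48.3 to 114.6. In the fit over every probe set it was at -0.24 (adjusted p = 0.628) in CHOP-/- cells at 8 h and at 0.16 (adjusted p = 0.771) in wild type cells. The 2 probe sets thus differed in sign in wild type cells, and with the mean over probe sets the wild type change of Gstm1 was -0.23 and not called (adjusted p = 0.312).

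**Figure D3:**
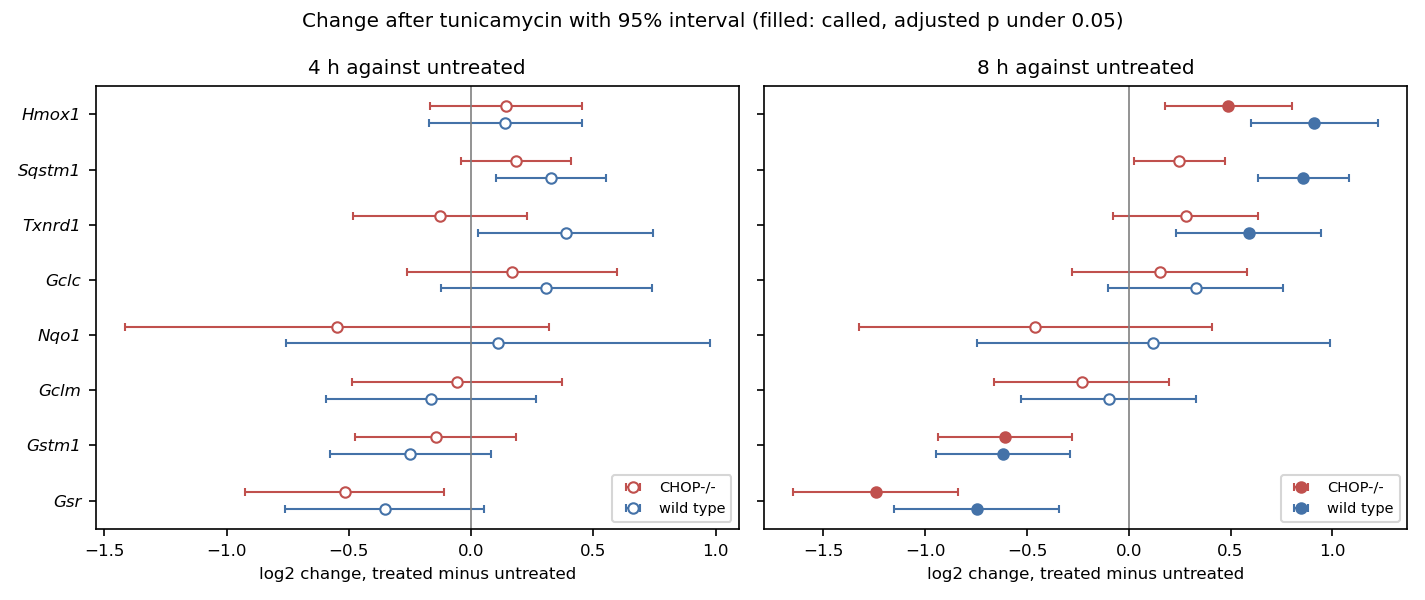
Log2 change after 4 h (left) and 8 h (right) of tunicamycin for the 8 genes, in CHOP-/- cells (red, upper of each pair) and wild type cells (blue, lower), with 95% intervals and filled points for calls. At 4 h no point is filled, and at 8 h Hmox1 is higher and Gsr and Gstm1 lower in both genotypes.

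The remaining genes make glutathione or reduce quinones. Gclc and Gclm encode the catalytic and the modifier subunit of glutamate-cysteine ligase, the rate-limiting enzyme of glutathione synthesis, on chromosomes 9 (77754535 to 77794489) and 3 (122245487 to 122267215). CHOP-/- cells averaged 138.8 ± 55.1 untreated, 148.2 ± 31.7 at 4 h and 146.1 ± 22.5 at 8 h for Gclc (99649_at), and wild type cells 131.2 ± 22.3, 168.6 ± 32.7 and 169.8 ± 24.2 (SD, n = 4). Gclm (160335_at) averaged 151.8 ± 49.4, 140.6 ± 24 and 127.0 ± 44.6 in CHOP-/- cells, and 146.4 ± 6.6, 134.8 ± 15.9 and 140.0 ± 29.9 in wild type cells. All of these groups overlapped. At 8 h the log2 change of Gclc was 0.15 (95% interval -0.28 to 0.58) in CHOP-/- and 0.33 (-0.10 to 0.76) in wild type cells. That of Gclm was -0.23 (-0.66 to 0.20) in CHOP-/- and -0.10 (-0.53 to 0.33) in wild type cells. The wild type interval of Gclc includes the 0.59 of Txnrd1, so an unchanged level is not shown. The wild type changes were 0.19 (adjusted p = 0.838) for Gclc and -0.25 (adjusted p = 0.777) for Gclm without wild type arrays A and B.

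Nqo1 encodes the quinone reductase NQO1, a classic NRF2 target, on chromosome 8 (107388225 to 107403205). Its probe set 94351_r_at ranged from 37.4 to 225.5 over the CHOP-/- arrays and from 34.4 to 123.5 over the wild type arrays. The other, 94350_f_at, ranged from 24 to 132.8 over CHOP-/- and from 16.3 to 97.5 over wild type arrays, and 3 of its arrays lay under the filter's signal of 27.7. The spread was the widest of the 8 genes, with an SE of 0.419 against 0.108 for Sqstm1. At 8 h the log2 change of 94351_r_at was -0.46 (95% interval -1.33 to 0.41) in CHOP-/- and 0.12 (-0.75 to 0.99) in wild type cells. That in wild type cells was 0.20 (adjusted p = 0.902) without wild type arrays A and B. These intervals are wide, so an unchanged level is not shown. In the fit over every probe set 94350_f_at was at -0.46 (adjusted p = 0.726) in CHOP-/- cells at 8 h. In wild type cells it was at 0.44 (adjusted p = 0.734).

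At 4 h none of the 8 genes was called in either genotype by limma, when 1.48% of all genes were called in CHOP-/- cells and 2.13% in wild type cells. At an unadjusted p under 0.05 there was 1 in CHOP-/- cells, Gsr, and there were 2 in wild type cells, Sqstm1 and Txnrd1. The shares of all genes at that threshold were 11.5% in CHOP-/- and 11.1% in wild type cells. Sqstm1 had a log2 change of 0.18 (adjusted p = 0.568) in CHOP-/- and 0.33 (adjusted p = 0.153) in wild type cells at 4 h. After normalization all untreated wild type arrays of Sqstm1 lay below those at 4 h, and these below those at 8 h. As deposited, 4 h array A (2220.3) lay below untreated array B (2286.6). Of all genes, 6.92% did not overlap between untreated and 4 h wild type arrays, and 9.21% between 4 h and 8 h.

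Between 4 h and 8 h in wild type cells 2 of the 8 genes were called, beside 4.13% of all genes. Hmox1 was higher at 8 h by 0.77 (SE 0.151, adjusted p = 0.00396) and Sqstm1 by 0.53 (SE 0.108, adjusted p = 0.00541). Without wild type arrays A and B neither was called, at 0.55 (adjusted p = 0.42) for Hmox1 and 0.37 (adjusted p = 0.499) for Sqstm1. Over all genes that fit called 20 in this comparison, against 235 in the main fit. In CHOP-/- cells the same comparison gave 0.35 (adjusted p = 0.196) for Hmox1 and 0.06 (adjusted p = 0.798) for Sqstm1.

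Between the genotypes, untreated cells and cells at 4 h gave no call among the 8 genes by limma, when 0.984% and 2.49% of all genes were called. At an unadjusted p under 0.05 there was 1 untreated, Gstm1, and there were 2 at 4 h, Sqstm1 and Txnrd1, beside 8.92% and 15.5% of all genes. Txnrd1 was at -0.45 in CHOP-/- against wild type cells at 4 h (SE 0.172, adjusted p = 0.184), and its response difference at 4 h was -0.51 (adjusted p = 0.996). The median difference of the 8 genes between CHOP-/- and wild type cells was -0.02 untreated, -0.19 at 4 h and -0.30 at 8 h, beside 0.01, 0.01 and 0.00 for all genes.

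**Figure D4:**
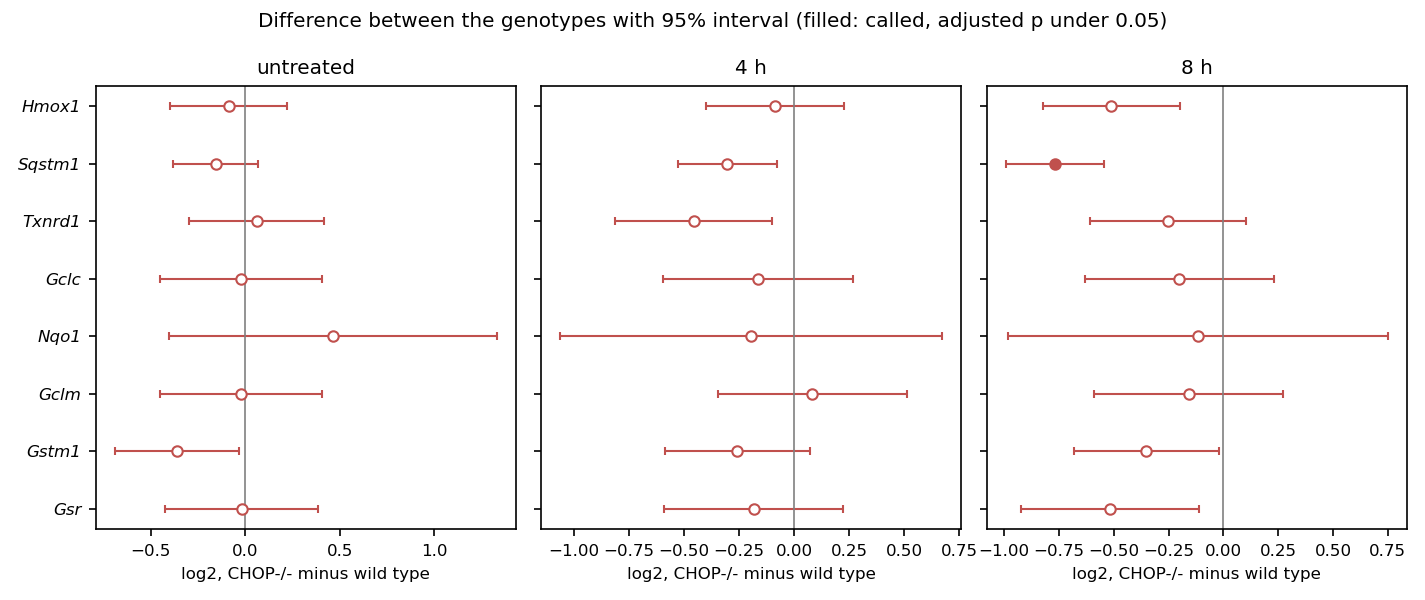
Log2 difference between CHOP-/- and wild type cells for the 8 genes, untreated (left), at 4 h (middle) and at 8 h (right), with 95% intervals and filled points for calls. The 1 filled point is Sqstm1 at 8 h, at -0.77. Scales differ between the panels.

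Correlations of the genes across the 24 arrays are given as a description because the arrays share treatment groups. Pearson's r of log2 values was 0.75 for Hmox1 with Sqstm1, 0.73 for Txnrd1 with Gclc and 0.66 for Gsr with Gstm1. It was 0.60 for Hmox1 with Txnrd1, 0.46 for Sqstm1 with Txnrd1 and 0.48 for Gsr with Gclm. It was -0.50 for Hmox1 with Gsr and 0.32 for the 2 glutamate-cysteine ligase subunits. The genes most like each called gene over the 24 arrays were Jagn1 (r = 0.91), Tbl2 (0.90) and Ddx10 (0.89) for Hmox1. For Sqstm1 they were Pold2 (0.85), Pard6a (0.85) and Nr2c2ap (0.85), and for Txnrd1 Utp4 (0.90), Wdr77 (0.89) and Gar1 (0.88). Gsr was nearest to Dab2 (0.92), Man1a (0.89) and Reep1 (0.87), and Gstm1 to Selenoh (0.91), Ddt (0.88) and Snrnp25 (0.86).

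Other genes of the pathway were called in a few members of some lists and in none of others. Among all genes tested at 8 h, 13.9% were called in CHOP-/- cells (7.27% higher, 6.64% lower). In wild type cells 16.6% were called (9.65% higher, 6.94% lower). Of 7 tested NRF2 regulators, 2 rose and none fell in CHOP-/- cells at 8 h, and 2 rose and 1 fell in wild type cells. The gene that fell was Bach1, the repressor of antioxidant response elements. It averaged 960.0 ± 171 at 8 h and 1308 ± 383 untreated in CHOP-/- cells, and 659.1 ± 101 at 8 h and 1316 ± 172 untreated in wild type cells (SD, n = 4). Its log2 change was -0.42 (adjusted p = 0.138) in CHOP-/- and -0.98 (SE 0.184, adjusted p = 0.000597) in wild type cells, and the response difference was not called (0.56, adjusted p = 1). Nfe2l1, the NRF2 relative NRF1, rose by 0.59 (adjusted p = 0.0203) in CHOP-/- and 0.72 (adjusted p = 0.00441) in wild type cells. Mafk, a small MAF partner, rose by 0.68 (adjusted p = 0.000699) in CHOP-/- and 0.42 (adjusted p = 0.0267) in wild type cells. The Bach1 change in wild type cells was -1.54 with the mean over its probe sets. In CHOP-/- cells the Nfe2l1 call ended without CHOP-/- untreated array B or D or CHOP-/- 8 h array A or B.

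The transcript of NRF2 itself was not called. Nfe2l2 was at 0.01 (adjusted p = 0.975) in CHOP-/- cells at 8 h and at 0.07 (adjusted p = 0.809) in wild type cells. Its signals averaged 394.4, 396.1 and 399.7 untreated, then at both later times in CHOP-/- cells, and 470.9, 562.0 and 502.5 in wild type cells. Keap1 lay under the filter, at mean signals of 6.7 to 10.2, and was not tested.

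Glutathione genes gave few calls. Of 13 tested, none was called in CHOP-/- cells by limma (3 at an unadjusted p under 0.05, as were 26.9% of all genes) and 2 fell in wild type cells at 8 h, with a median of -0.27 in CHOP-/- and -0.21 in wild type cells. Glrx, a glutaredoxin, was at -0.41 (adjusted p = 0.497) in CHOP-/- and fell by 1.22 (SE 0.351, adjusted p = 0.018) in wild type cells. Mgst1, a microsomal transferase, was at -0.86 (adjusted p = 0.174) in CHOP-/- and fell by 1.19 (SE 0.407, adjusted p = 0.0467) in wild type cells. Arrays of both genes overlapped between the groups. Of 11 thioredoxin and peroxide genes, 1 fell in CHOP-/- cells, the peroxiredoxin Prdx2 (-0.29, adjusted p = 0.0419). In wild type cells 1 rose, the mitochondrial thioredoxin Txn2 (0.38, adjusted p = 0.0365). The counts of both lists stand beside 13.9% of all genes called at 8 h in CHOP-/- cells and 16.6% in wild type cells.

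At 8 h 13.9% of all genes were called in CHOP-/- cells, 6.64% lower, and 16.6% in wild type cells, 6.94% lower. Of 5 tested genes that supply NADPH, 1 fell in each genotype at 8 h and it was Idh1, the cytosolic isocitrate dehydrogenase. It averaged 354.2 ± 27.9 at 8 h and 694.2 ± 175 untreated in CHOP-/- cells, and 285.4 ± 21.8 at 8 h and 713.6 ± 95.5 untreated in wild type cells (SD, n = 4). Its log2 change was -0.92 (adjusted p = 0.000908) in CHOP-/- and -1.33 (SE 0.177, adjusted p = 1.02e-05) in wild type cells. The wild type change was -1.51 without wild type arrays A and B (adjusted p = 0.00251). None of 4 heme and iron genes and none of 5 detoxification genes was called in either genotype at 8 h by limma. At an unadjusted p under 0.05 there were 1 and 1 in CHOP-/- cells, and 1 and 2 in wild type cells, beside 26.9% and 27.8% of all genes. Blvra, which encodes biliverdin reductase and acts after heme oxygenase, was at -0.60 (adjusted p = 0.169) in CHOP-/- and -0.72 (adjusted p = 0.0816) in wild type cells. With the array letter as a replicate block, which pairs the arrays of the wild type contrast, Blvra was called lower in wild type cells (adjusted p = 0.0343).

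Neighbouring stress pathways are given for scale. Their counts at 8 h stand beside 13.9% of all genes called in CHOP-/- and 16.6% in wild type cells. The shares of all genes called lower were 6.64% and 6.94%. Of 10 autophagy genes, 1 was called in each genotype at 8 h. In wild type cells it was Atg5, which rose by 0.49 (adjusted p = 0.0201), and in CHOP-/- cells it was Gabarapl1 at -0.30, a gene named after its value was seen. Map1lc3b, the LC3 that p62 binds, was at -0.20 (adjusted p = 0.553) in CHOP-/- and -0.39 (adjusted p = 0.192) in wild type cells. Of 10 cytosolic heat shock genes, 1 fell in CHOP-/- and 4 fell in wild type cells. Cryab, a small heat shock protein, was called in both, at -0.71 (adjusted p = 0.0304) in CHOP-/- and -0.75 (adjusted p = 0.0189) in wild type cells. With the mean over its probe sets neither call held, at -0.15 (adjusted p = 0.667) in CHOP-/- and -0.35 (adjusted p = 0.232) in wild type cells. Between the genotypes at 8 h Hsph1 was called lower in CHOP-/- cells, with a log2 difference of -0.72 (adjusted p = 0.0319). Abcc1, which exports glutathione conjugates, and Trib3 lay just short of a call there, at -0.65 (adjusted p = 0.055) and -0.91 (adjusted p = 0.0542) in CHOP-/- against wild type cells. With the replicate block, which pairs the arrays of this contrast, both were called, with adjusted p-values of 0.0465 for Abcc1 and 0.0411 for Trib3.

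A list of 10 genes of the ATF4 pathway, drawn up for its overlap with the antioxidant response, gave calls in 1 direction. Of the 5 tested at 8 h, 3 rose in CHOP-/- cells, namely Atf4 itself, Trib3 and Mthfd2. In wild type cells 4 rose, the same genes and Asns. Medians of the 5 were 0.35 in CHOP-/- and 0.46 in wild type cells. Of all genes, 7.27% were called higher in CHOP-/- cells and 9.65% in wild type cells. Atf4 rose by 1.05 (adjusted p = 8.26e-08) in CHOP-/- and 0.88 (adjusted p = 7.51e-07) in wild type cells. Trib3, a pseudokinase known as an ATF4 and CHOP target, rose by 1.72 (adjusted p = 9.42e-05) in CHOP-/- and 2.28 (adjusted p = 1.78e-06) in wild type cells. Slc7a11, which imports cystine for glutathione synthesis, lay under the filter and was not tested. Asns, asparagine synthetase, was at 0.13 (adjusted p = 0.408) in CHOP-/- cells and rose by 0.46 (adjusted p = 0.00101) in wild type cells, and its response difference was not called (-0.34, adjusted p = 1). Asns was also called higher in CHOP-/- than in wild type cells when untreated (0.50, adjusted p = 0.00463) and at 4 h (0.34, adjusted p = 0.0464). At 8 h the difference was 0.17 (adjusted p = 0.398). The untreated call ended in several other fits, among them median centring (0.33, adjusted p = 0.727) and no normalization (0.38, adjusted p = 0.299). It also ended without wild type arrays A and B (adjusted p = 0.0992). The wild type rise at 8 h was not called with median centring (adjusted p = 0.0788) or the mean over probe sets (adjusted p = 0.0655).

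The 16 named pathway genes called in wild type cells at 8 h were refitted without wild type arrays A and B. Over all 5692 genes tested, that fit called 296 in this contrast, against 944 in the main fit. Of the 16 genes, 5 kept their call in it, and they were Atf4, Trib3, Idh1, Glrx and Hspa1b. The other 11 did not, among them Bach1 at -0.91 (adjusted p = 0.0667), Nfe2l1 at 0.65 (adjusted p = 0.192) and Mafk at 0.48 (adjusted p = 0.141). Of the 16 calls, 9 held whichever single array was left out. Those of Mafk, Glrx, Mgst1, Txn2, Atg5, Cryab and Hspa1a ended without at least 1 of the untreated or 8 h wild type arrays. For Glrx these were untreated array B and 8 h arrays C and D, and for Atg5 untreated arrays A and C. The CHOP-/- call of Prdx2 ended without any 1 of its 8 arrays, and that of Cryab without CHOP-/- untreated array A or C or any 8 h array. The difference in Hsph1 between the genotypes ended without wild type array A, B or D or CHOP-/- array A, C or D, and was -0.52 (adjusted p = 0.189) without wild type arrays A and B.

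**Figure D5:**
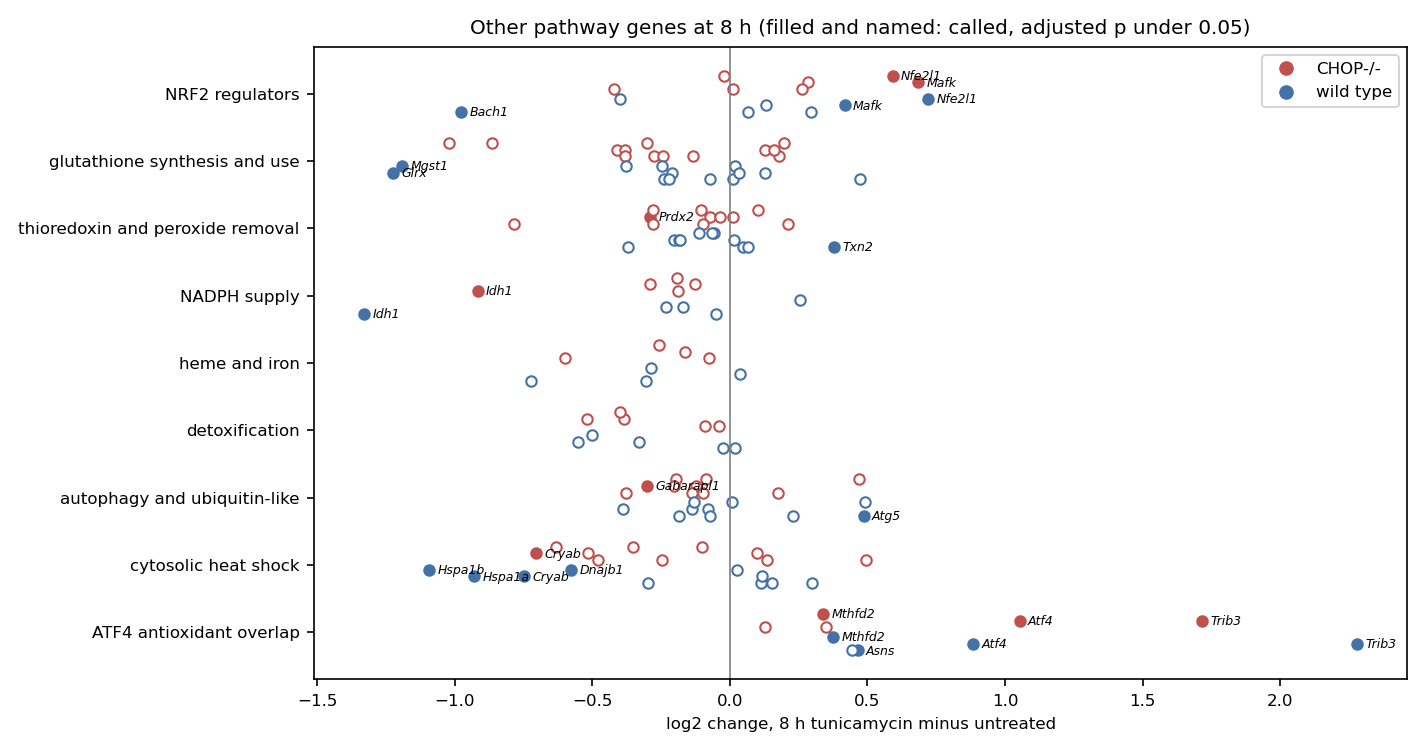
Log2 change at 8 h for the other genes of the antioxidant and neighbouring pathways, 1 row per list, in CHOP-/- cells (red, upper) and wild type cells (blue, lower). Filled, named points are calls, and Trib3, at 1.72 in CHOP-/- and 2.28 in wild type cells, is the largest change.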

How the data were processed

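RNA of 24 samples was measured on 1-colour oligonucleotide arrays. The deposited values were probe set signals, in the unit intensity, linear and given to 1 decimal, per the deposited value table. From the values, the mean of each array trimmed by 2% at both ends was 250.1 to 250.2, which shows scaling to 1 trimmed mean. The scaling software: not given in the sources used here. Array medians ran from 48.2 to 72.6.

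Of 12488 probe sets, 10833 with 1 gene and no control role were used. Each of 8251 genes was represented by its brightest probe set on average. Gene positions came from RefSeq (GRCm38.p6). A pseudocount of 5.7 (20th percentile) was added and log2 taken. Array medians lay up to 0.266 above and 0.273 below their mean, over the limit of 0.2, so quantile normalization was applied. Genes with mean log2 above 5.06 (a signal of 27.7) were tested, 5692 in all. The package limma 3.58.1 (R 4.3.3) fitted 6 group means over all arrays with an intensity trend, 18 residual and 5.2 prior degrees of freedom, and 11 contrasts, two-sided, with Benjamini-Hochberg adjustment within each. Every probe set was also fitted with no filter. The limma fit was tested on data simulated after normalization and filtering, so the earlier steps were not part of that test. The simulated noise was independent between arrays, without the same-letter correlations given below. Precision is limited by having 4 arrays per group.

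The members and lists were chosen with earlier results of these data known. All 8 members and Ddit3 were named. From each pathway list, up to 4 genes with the smallest adjusted p at 8 h in wild type cells and any gene called between genotypes could be named, and for each called member the 3 genes with the highest correlation. Fits with the array letter as a block were run, and the letters were taken to pair arrays where all 4 same-letter correlations exceeded 0.1. That held for the 3 wild type contrasts (0.315 to 0.554 at 4 h, 0.403 to 0.618 at 8 h and 0.252 to 0.610 between 8 h and 4 h) and for CHOP-/- against wild type at 8 h (0.286 to 0.546), from the data and not from the labels. It did not hold for any contrast within CHOP-/- cells (-0.342 to 0.433 at 4 h against untreated), whose arrays share the same letter effects in the block fit. Figures were drawn with matplotlib.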

Additional observations from a re-analysis of the deposited data

Results flagged for a closer look

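In the 60 groups of 4 arrays given by 10 probe sets and 6 groups, 2 arrays stood apart from the other 3 by more than Dixon's 95% critical value, and chance flags about 1 in 20 groups. For Sqstm1 in wild type cells at 8 h, array C had a signal of 3020.9 while the other 3 lay between 3921.3 and 3937.4, a gap of 0.982 of the group's range. Without that array the wild type change at 8 h was 0.94, against 0.86 with it. For Txnrd1 in wild type cells at 8 h, array B had a signal of 1736.8 while the other 3 lay between 2594.3 and 2711.4, a gap of 0.88 of the range. Without that array the wild type change was 0.74, against 0.59 with it. Array B is also the wild type array with the highest leukocyte marker sum at 8 h, 3943.6, and the part of that in the Txnrd1 value was not tested.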

How the results depend on the processing

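Over 88 values, the 8 genes in 11 contrasts, 1981 alternative values were computed. The side of the threshold was kept in 1934, of which 1825 also kept their direction and 109, none of them called, changed sign. A further 39 lost a call and 8 gained one, with no change of sign. In wild type cells 5 of the 8 genes were called at 8 h; 2 were without wild type arrays A and B, and 1 without arrays A and B of both genotypes or without untreated wild type arrays A, B and C. The lone untreated array left by the last was assumed to vary like the others. Over all genes this contrast had 944 calls in the main fit. It had 296 without wild type arrays A and B and 211 without arrays A and B of both genotypes. For wild type 8 h against 4 h (2 called), median centring gave 1 and both fits without arrays A and B 0. Over all genes that contrast had 235 calls, 20 without wild type arrays A and B and 8 without arrays A and B of both genotypes. CHOP-/- cells at 8 h (3 called) gave 1 without arrays A and B of both genotypes, when calls over all genes went from 792 to 147. For CHOP-/- 8 h against 4 h (1 called), median centring and a fit of only the groups compared gave 0. The fit without arrays A and B of both genotypes gave 2, and leaving out 1 array 0 to 2. Over all genes the fit of only the groups compared called 160 in that contrast, against 315 in the main fit. For CHOP-/- against wild type at 8 h (1 called), a fit of only the groups compared gave 2, array weights 3, the replicate block 2, the fit without arrays A and B of both genotypes 0, and leaving out 1 array 1 to 2. The replicate block changed no other call among the 8 genes. The causes were not tested, apart from fewer arrays in the fits that leave arrays out. Both fits without arrays A and B were chosen after seeing the leukocyte marker levels, and the other fits were planned.

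Counts over all genes moved by over 1.5 times in some fits. Main counts were 121 and 944 for wild type 4 h and 8 h, 235 for wild type 8 h against 4 h, 84, 792 and 315 for the same in CHOP-/- cells, and 56, 142 and 237 between genotypes untreated, at 4 h and at 8 h. Over all alternatives the ranges were 8 to 190, 211 to 1469, 8 to 344, 3 to 125, 147 to 1027, 120 to 408, 8 to 88, 14 to 201 and 16 to 542 in that order. Response differences gave 0 (0 to 2) at 4 h and 2 (0 to 5) at 8 h.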
